A study of Mus musculus with 9 samples.

Results

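Fatty acid beta-oxidation genes were followed in NIH-3T3 cells, a line of mouse embryonic fibroblasts, after their supply of the microRNA miR-378-3p was raised or blocked. The list named 31 genes of the mitochondrial and peroxisomal pathways. One probe set stood for each gene, that of the highest mean over the 9 arrays, among probe sets annotated to a single gene. In this way 30 of the 31 genes had a value, and 29 lay above a level filter of 3.86 on the log2 scale and entered the test, out of 11963 genes tested in all. Cpt1b, the muscle form of carnitine palmitoyltransferase 1, shared its probe set with another gene, and Ehhadh lay below the filter. The groups were cells transfected with a mimic of mmu-miR-378-3p, cells transfected with an inhibitor of it, and cells transfected with a RISC-free siRNA as the control, with 3 arrays each. All received 25 nM of RNA complexed to DharmaFECT 1 and were collected 48 hours later. The control was an siRNA kept out of the silencing complex, and no mimic or inhibitor of another sequence was among the samples analysed here, so effects of miR-378-3p and other effects of each transfected RNA cannot be told apart. The labels speak of triplicates and leave unsaid whether each was a culture of its own, so the p-values speak for the variation among these 9 samples, some or all of which may be technical.

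Beta-oxidation shortens fatty acids to acetyl-CoA and feeds electrons to the respiratory chain. Long chains enter mitochondria as carnitine esters, are oxidized by chain-length-specific acyl-CoA dehydrogenases that hand electrons to the electron transfer flavoprotein, and are then hydrated, oxidized again and cleaved by a thiolase. Peroxisomes run a parallel pathway for very long and branched chains. miR-378 is encoded within Ppargc1b, a gene for a coactivator of mitochondrial metabolism. In mice the products of this microRNA gene have been linked to fatty acid use. Targets named for them include the carnitine acetyltransferase gene Crat and the mediator subunit gene Med13. Whether the mature RNA mimicked or blocked here acts on either gene was not tested.

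The values were log2 RMA values, in which a difference of 1 is a doubling. Of 10 fibroblast markers, 9 lay above the level filter, among them Col1a1, Vim and Pdgfra, and the tenth, Fap, lay below it. Of 30 markers on the array of liver, muscle, adipocytes, neurons, epithelium, leukocytes and endothelium, 11 lay above the filter, and limma called none of them against the control with either RNA. Of the fibroblast markers, Thy1 was higher with the mimic (0.38, limma, adjusted p = 0.00823) and Col3a1 lower with the inhibitor (-0.22, limma, adjusted p = 0.0427). Between mimic and inhibitor, 4 of the 9 fibroblast markers were called, Col3a1, Thy1 and S100a4 higher with the mimic (0.32, 0.22 and 0.23) and Pdgfrb lower (-0.27; limma, adjusted p of at most 0.0494). Of the 11 other markers 1 was called there, the muscle actin gene Acta1, with means of 5.05 in mimic cells and 4.77 in inhibitor cells (0.28, limma, adjusted p = 0.0242). Of the 7 muscle markers 3 lay above the filter, and the log2 values of all 7 summed to between 29.1 and 29.6 with the mimic, 28.6 and 29.2 with the inhibitor, and 28.7 and 29.1 in the controls. The part of these markers in the differences between mimic and inhibitor was not tested. The arrays were not level. The 75th percentile over all probe sets ran from 5.55 on mimic 3 to 5.76 on inhibitor 1, and these 2 arrays also lay at the ends of the first principal component. Their part in the results below was measured by leaving arrays out and by rescaling, and is given where it matters.

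With the mimic, 1 of the 29 genes passed the threshold of an adjusted p of 0.05 (limma over all genes tested, Benjamini-Hochberg). It was Echs1, the short-chain enoyl-CoA hydratase, and it fell. That share of 3.45% stands beside 3.55% of all genes tested, 1.1% called higher and 2.45% called lower. In RNA of whole cultures, less transcript per cell and fewer cells that carry it cannot be told apart. Differences from the control ran from -0.25 to 0.25 on the log2 scale with a median of -0.03, against -0.01 over all genes. An unadjusted p under 0.05 was found for 9 members, or 31%, and for 15.9% of all genes. The mimic and control arrays did not overlap for 3 members that were higher and 4 that were lower with the mimic, 24.1% of the list, beside 21.3% of all genes, of which 8.67% were higher and 12.7% lower.

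With the inhibitor, Echs1 was again the single member called and again lower. Limma called 3.45% of the list, beside 14.9% of all genes, 11.1% higher and 3.76% lower. Most members had lower means than the control. Of the 29 members, 26 had a mean below the control and 3 above it, with a median difference of -0.07, whereas 45.8% of all genes tested were below the control and their median was 0.01. All 3 inhibitor arrays lay below all 3 controls for 12 members, or 41.4%, beside 12.8% of all genes. The groups were apart in either direction for 48.3% of the list and 37.7% of all genes. The inhibitor arrays lay above the controls for 2 members, Cpt1a and Acad9, or 6.9%, beside 24.9% of all genes. Most single differences were small against their errors, with 8 members, or 27.6%, at an unadjusted p under 0.05, beside 28.8% of all genes.

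Between the 2 active RNAs, 7 members differed. Slc25a20, Acadm, Acads, Acad11, Hadhb and Acaa1a were higher with the mimic than with the inhibitor, and Cpt1c was lower. The 6 higher members were 20.7% of the list, beside 6.91% of all genes called higher with the mimic, and the 1 lower member was 3.45%, beside 19.9% of all genes called lower. The total of 7, or 24.1%, lay near the 26.8% called among all genes. The arrays of the 2 groups were apart for 31% of the members, 20.7% higher and 10.3% lower with the mimic, beside 38.6% of all genes, 12.9% higher and 25.7% lower. An unadjusted p under 0.05 was found for 9 members, or 31%, and for 38.5% of all genes. The median of mimic minus inhibitor was 0.06 over the members and -0.02 over all genes tested. The members' median was 0.022 without mimic 2 and 0.12 without mimic 3, the lowest and highest of the leave-one-out fits. Without inhibitor 2, inhibitor 3 or mimic 1, the count called was 4, 3 and 4, or 13.8%, 10.3% and 13.8% of the members, beside 25.4%, 20.5% and 20.7% of all genes. The widest of these differences was 0.35 on the log2 scale, or 1.27-fold.

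**Figure D1:**
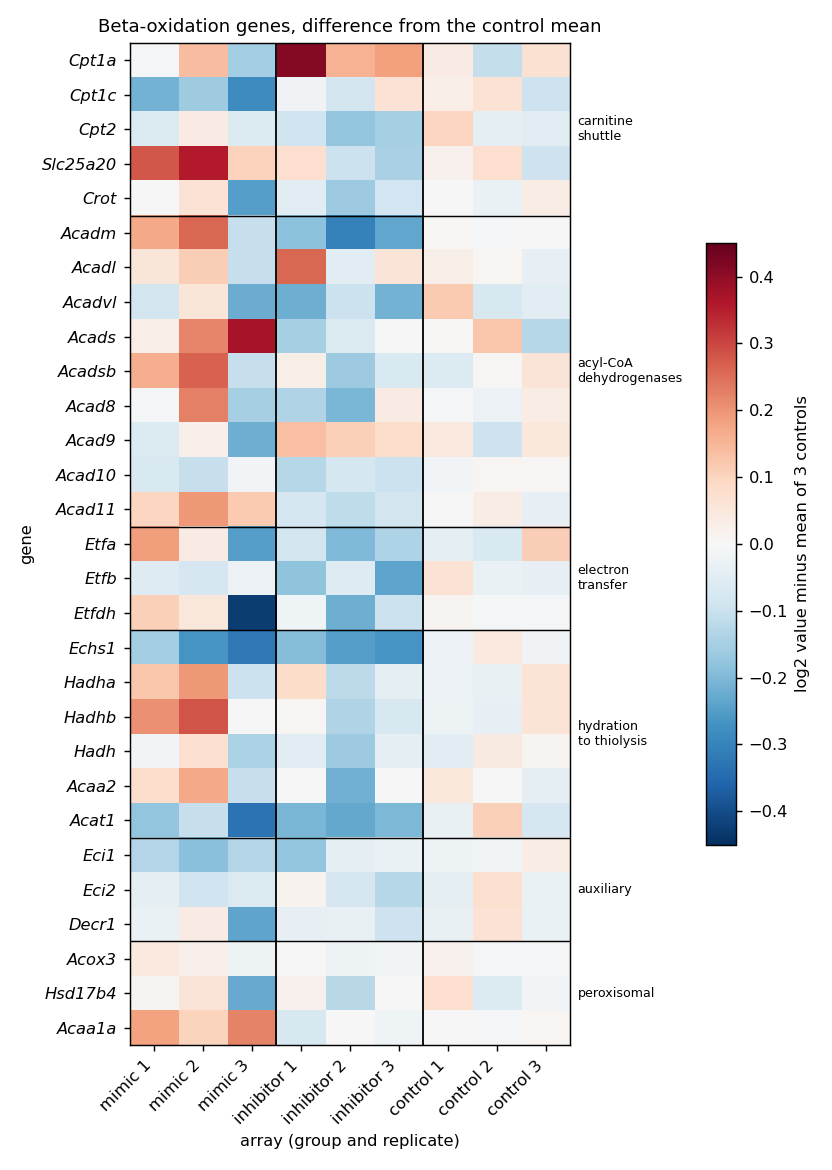
Log2 value minus the mean of the 3 controls for the 29 genes tested (rows, grouped by role) on the 9 arrays (columns), with red above and blue below the control mean. Most cells of the inhibitor columns are blue, Echs1 and Acat1 are blue in all 6 columns of the active RNAs, and mimic 3 is bluer than mimic 1 and 2.

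The carnitine shuttle carries long chains into mitochondria. Slc25a20 encodes the carnitine-acylcarnitine carrier of the inner membrane. Its log2 values were 5.46, 5.54 and 5.29 with the mimic, 5.26, 5.09 and 5.04 with the inhibitor, and 5.20, 5.26 and 5.09 in the controls. All mimic arrays lay above all others. The difference between mimic and inhibitor was 0.30 with a standard error of 0.08 (1.23-fold, limma, adjusted p = 0.0193), and that between mimic and control was 0.25 ± 0.08 (SE; limma, adjusted p = 0.147). The first of these calls ended without mimic 1, mimic 2, inhibitor 2 or inhibitor 3 (limma, adjusted p of 0.0646, 0.0511, 0.0555 and 0.0785) and after median centring of the arrays (limma, adjusted p = 0.0609). The difference from the control was called without mimic 3 (0.32, limma, adjusted p = 0.0363).

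Cpt1 enzymes attach carnitine to long acyl chains at the outer membrane, the controlling step of the pathway. Cpt1a, the liver form, which is widely expressed, stood at 7.54, 7.69 and 7.40 with the mimic, 7.96, 7.71 and 7.73 with the inhibitor, and 7.59, 7.44 and 7.62 in the controls. The inhibitor arrays lay above all others, the reverse of most members, but the differences did not pass the threshold. Inhibitor minus control was 0.25 ± 0.09 (SE; limma, adjusted p = 0.0939), and mimic minus inhibitor was -0.26 ± 0.09 (limma, adjusted p = 0.0579). Without mimic 3 the inhibitor difference was called (limma, adjusted p = 0.0381), and without mimic 2 the difference between mimic and inhibitor was -0.33 (limma, adjusted p = 0.0201).

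Cpt1c, a form best known from neurons, stood at 4.91, 4.96 and 4.84 with the mimic, 5.10, 5.04 and 5.19 with the inhibitor, and 5.15, 5.18 and 5.03 in the controls. The mimic arrays were the lowest 3 of the 9. It was lower with the mimic than with the inhibitor by -0.21 ± 0.06 (SE; limma, adjusted p = 0.0304), and mimic minus control was -0.22 ± 0.06 (limma, adjusted p = 0.0901). The call was lost without mimic 1 or 3 or without inhibitor 1 or 3 (limma, adjusted p of up to 0.113), with the replicate number as a block (limma, adjusted p = 0.0537), with the 6 arrays compared alone (limma, adjusted p = 0.0544) and after scaling to the 75th percentile (-0.11, limma, adjusted p = 0.153).

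Cpt2, which returns the acyl chain to CoA inside mitochondria, and Crot, the peroxisomal carnitine octanoyltransferase, were not called in any comparison. Their inhibitor arrays all lay below the controls, with differences of -0.14 ± 0.06 for Cpt2 and -0.10 ± 0.08 for Crot (SE). With the mimic the differences from the control were -0.03 ± 0.06 and -0.06 ± 0.08. The shared probe set of Cpt1b read 4.10, 3.99 and 4.07 with the mimic, 4.01, 4.02 and 4.04 with the inhibitor, and 4.06, 4.04 and 4.04 in the controls, and was not tested.

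Acyl-CoA dehydrogenases take the first oxidation step, each for its own range of chains. Of the 9 genes of this family tested, limma called none against the control with either RNA, beside 3.55% and 14.9% of all genes. An unadjusted p under 0.05 was found for 2 with the mimic and 3 with the inhibitor, beside 15.9% and 28.8% of all genes. Between mimic and inhibitor 3 were higher with the mimic, 33.3% beside 6.91% of all genes. Limma called none of the family lower there, beside 19.9% of all genes. Acadm, the medium-chain enzyme, showed the widest difference of all members. It stood at 8.52, 8.61 and 8.25 with the mimic, 8.17, 8.05 and 8.11 with the inhibitor, and 8.35, 8.34 and 8.35 in the controls. The controls lay between the inhibitor arrays, all lower, and mimic 1 and 2, with mimic 3 below them. Mimic minus inhibitor was 0.35 ± 0.08 (SE; 1.27-fold, limma, adjusted p = 0.0103). This call held in all 9 leave-one-out fits, with values from 0.27 to 0.45. Inhibitor minus control was -0.24 ± 0.08 (limma, adjusted p = 0.0777), and was called without mimic 2 or without mimic 3 (limma, adjusted p of 0.0415 and 0.00542), where the fold change stays the same and only the spread and the adjustment differ.

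Acad11, which acts on long and very long chains, showed the smallest adjusted p of any member. It stood at 4.49, 4.59 and 4.51 with the mimic, 4.32, 4.28 and 4.31 with the inhibitor, and 4.39, 4.43 and 4.36 in the controls. The 3 groups did not overlap, in the order mimic, control, inhibitor. Mimic minus inhibitor was 0.23 ± 0.05 (SE; limma, adjusted p = 0.00558), and held in all 9 leave-one-out fits. The differences from the control were 0.14 ± 0.05 with the mimic and -0.09 ± 0.05 with the inhibitor (limma, adjusted p of 0.175 and 0.24). This probe set lay not far above the level filter.

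Acads, the short-chain enzyme, stood at 7.06, 7.25 and 7.40 with the mimic, 6.88, 6.97 and 7.03 with the inhibitor, and 7.04, 7.16 and 6.90 in the controls. Mimic 3, the lowest mimic array for most members, was the highest here. Mimic minus inhibitor was 0.28 ± 0.09 (SE; limma, adjusted p = 0.0444). The call ended in 6 of the 9 leave-one-out fits, those without mimic 2 or 3, any inhibitor array or control 1 (limma, adjusted p of up to 0.144), and also with a lower level filter or none (limma, adjusted p of 0.0625 and 0.0818), after median centring and with the 6 arrays compared alone (limma, adjusted p of 0.0691 and 0.0711). Without both mimic 3 and inhibitor 1 the difference was 0.16 (limma, adjusted p = 0.236).

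The call of Acaa1a also held in every leave-one-out fit, and its window is shown further below. The windows around the annotated starts of Acadm and Acad11 are printed because the calls of these 2 genes held in every such fit. They run from 250 bases before the start to 50 after it, from RefSeq on GRCm38.p6, read 5′ to 3′ on the gene's strand. Acadm lies at chr3:153944594-153944893 on the minus strand, and Acad11 at chr9:104063474-104063773 on the plus strand. Capitals mark a CCAAT box, the site of the general factor NF-Y, on either strand. Acadm had none of the motifs searched.
Acadm: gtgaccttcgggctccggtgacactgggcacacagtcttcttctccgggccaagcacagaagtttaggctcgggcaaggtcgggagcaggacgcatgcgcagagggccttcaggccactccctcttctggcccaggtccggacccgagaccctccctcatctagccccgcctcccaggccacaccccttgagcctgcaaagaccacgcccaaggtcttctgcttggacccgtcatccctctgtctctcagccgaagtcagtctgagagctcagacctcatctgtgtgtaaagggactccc
Acad11: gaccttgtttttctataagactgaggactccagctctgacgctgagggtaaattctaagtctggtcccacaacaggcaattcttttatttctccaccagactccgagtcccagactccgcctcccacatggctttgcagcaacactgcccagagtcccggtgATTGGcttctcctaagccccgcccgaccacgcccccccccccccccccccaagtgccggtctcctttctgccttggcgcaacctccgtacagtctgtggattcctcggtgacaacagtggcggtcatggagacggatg

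The remaining 6 dehydrogenases were not called. Acadvl, the very-long-chain enzyme, stood at 5.98, 6.12 and 5.84 with the mimic, 5.84, 5.97 and 5.85 with the inhibitor, and 6.18, 5.99 and 6.01 in the controls. Its inhibitor arrays were below all controls, with a difference of -0.18 ± 0.08 (SE; limma, adjusted p = 0.166). Acadl, the long-chain enzyme, differed by 0.02 ± 0.08 with the mimic and 0.09 ± 0.08 with the inhibitor. Acad9, which acts mainly in the assembly of respiratory complex I, was the other member besides Cpt1a whose inhibitor arrays all lay above the controls. Its difference was 0.11 ± 0.07 with the inhibitor and -0.09 ± 0.07 with the mimic, and mimic minus inhibitor was -0.19 ± 0.07 (limma, adjusted p = 0.0586), called without mimic 2 (-0.25, limma, adjusted p = 0.0209). Acadsb and Acad8, which serve the breakdown of isoleucine and valine, differed from the control by 0.11 ± 0.09 and 0.02 ± 0.09 with the mimic and by -0.07 ± 0.09 and -0.10 ± 0.09 with the inhibitor. Without mimic 3, Acadsb was called between mimic and inhibitor (0.28, limma, adjusted p = 0.0102). For Acad10 the difference from the control was -0.06 ± 0.05 in mimic cells and -0.10 ± 0.05 in inhibitor cells.

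**Figure D2:**
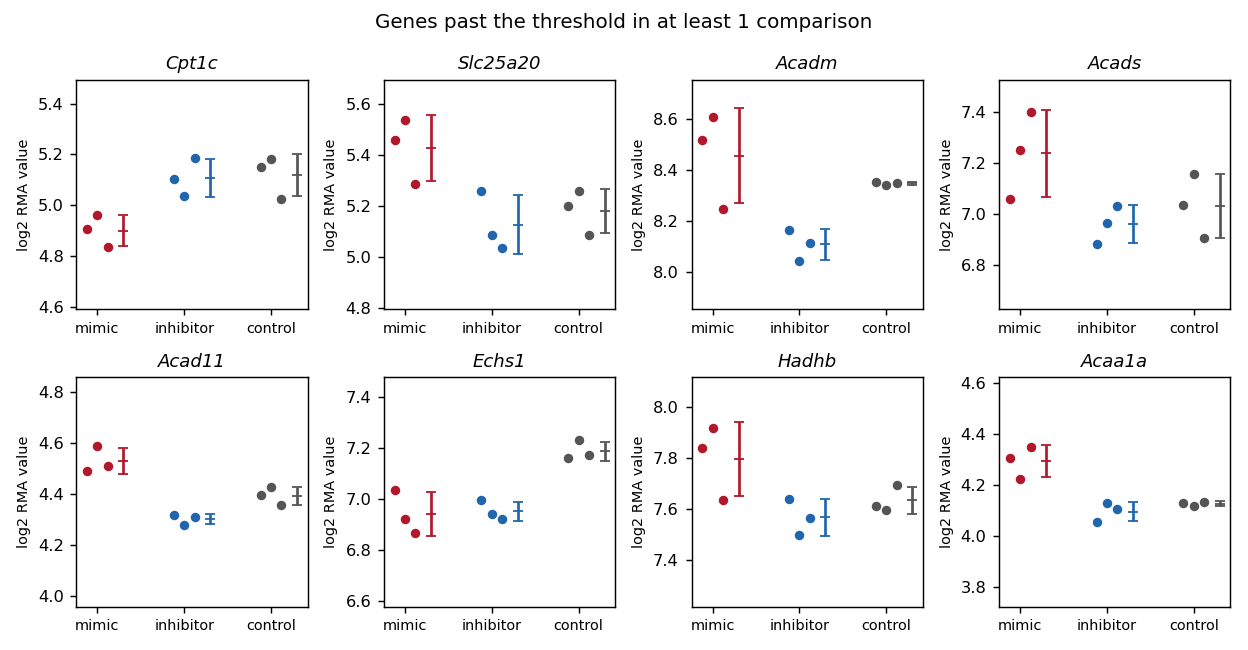
Log2 RMA values of the 8 genes past the threshold in at least 1 comparison, with a point for each array and a bar for the mean ± SD of 3 arrays, in mimic, inhibitor and control cells from left to right; each axis spans 0.9 log2 units. For Echs1 both active RNAs lie below the controls, and for Acad11 the 3 groups are apart in the order mimic, control, inhibitor.

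Electrons from the dehydrogenases pass to the electron transfer flavoprotein, made by Etfa and Etfb, and on to its oxidoreductase, made by Etfdh. The inhibitor arrays lay below all controls for all 3 genes, beside 12.8% of all genes tested. Limma called none of the 3, beside 14.9% of all genes. The differences from the control were -0.14 ± 0.10 for Etfa, -0.16 ± 0.06 for Etfb and -0.11 ± 0.12 for Etfdh (SE), and Etfb alone had an unadjusted p under 0.05 (adjusted p = 0.0943). It was called without inhibitor 2 (-0.21, limma, adjusted p = 0.0385). With the mimic the differences were -0.01, -0.05 and -0.09, and none of the 3 genes had an unadjusted p under 0.05, beside 15.9% of all genes. Etfdh shows how far mimic 3 stood from its group, with 7.93, 7.87 and 7.39 in the mimic arrays, against 7.80, 7.60 and 7.72 with the inhibitor and 7.83, 7.82 and 7.81 in the controls. Its SD of 0.29 with the mimic was the highest of any member in any group. Without mimic 3, Etfa and Etfdh were called higher with the mimic than with the inhibitor (0.25 and 0.19, limma, adjusted p of 0.0241 and 0.0445).

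Echs1 hydrates short and medium enoyl-CoA in the second step of each round and also serves valine breakdown. It stood at 7.03, 6.92 and 6.86 with the mimic, 6.99, 6.94 and 6.92 with the inhibitor, and 7.16, 7.23 and 7.17 in the controls. All 6 arrays of the active RNAs lay below all 3 controls. It fell by 0.25 ± 0.06 with the mimic (SE; limma, adjusted p = 0.0369) and by 0.24 ± 0.06 with the inhibitor (limma, adjusted p = 0.0171). These comparisons share the control arrays, so the second is no independent repeat of the first. Mimic minus inhibitor was -0.01 with a 95% interval from -0.13 to 0.11. The mimic call held without mimic 1 or inhibitor 1 and ended without any of the other 7 arrays (limma, adjusted p from 0.0574 without inhibitor 2 to 0.147 without control 2), and likewise after median centring, with the 6 arrays compared alone, with an intensity trend and with the replicate number as a block (limma, adjusted p of 0.0739, 0.081, 0.0778 and 0.0626). The inhibitor call ended without inhibitor 3, control 2 or control 3 (limma, adjusted p of 0.0672, 0.0726 and 0.0538) and after median centring (limma, adjusted p = 0.0505). Both fold changes stayed between -0.29 and -0.21 in the leave-one-out fits.

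The Echs1 window, at chr7:140116372-140116671 on the minus strand, is shown as that of the only member called against the control. None of the motifs searched was found in it, so it has no capitals.
Echs1: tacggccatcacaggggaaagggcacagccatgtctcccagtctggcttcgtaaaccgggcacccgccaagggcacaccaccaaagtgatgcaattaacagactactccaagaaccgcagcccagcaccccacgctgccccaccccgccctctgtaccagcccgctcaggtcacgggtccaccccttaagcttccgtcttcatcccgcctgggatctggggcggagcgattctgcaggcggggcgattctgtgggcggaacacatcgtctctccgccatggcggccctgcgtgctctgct

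Hadha and Hadhb encode the alpha and beta subunits of the mitochondrial trifunctional protein, which carries out the last 3 steps for long chains. Hadhb stood at 7.84, 7.92 and 7.63 with the mimic, 7.64, 7.50 and 7.56 with the inhibitor, and 7.61, 7.60 and 7.69 in the controls. Mimic 1 and 2 lay above all other arrays, and mimic 3 lay among them. Mimic minus inhibitor was 0.23 ± 0.07 (SE; limma, adjusted p = 0.0403). The call held without mimic 3 or inhibitor 1 and ended without any of the other 7 arrays (limma, adjusted p from 0.056 to 0.119), with the replicate block, the 6 arrays alone and median centring (limma, adjusted p of 0.0641, 0.0915 and 0.116), and with a lower level filter or none (limma, adjusted p of 0.051 and 0.0641). Without mimic 3 the difference from the control was called (0.24, limma, adjusted p = 0.0438). Without both mimic 3 and inhibitor 1, mimic minus inhibitor was 0.35 (limma, adjusted p = 0.0019). A second probe set of Hadhb gave a difference of 0.21. Hadha stood at 8.53, 8.60 and 8.31 with the mimic, 8.49, 8.29 and 8.37 with the inhibitor, and 8.38, 8.38 and 8.47 in the controls. Its difference between mimic and inhibitor, 0.10 ± 0.08 (limma, adjusted p = 0.384), had the same sign as that of Hadhb and did not pass.

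These 2 genes start head to head on chromosome 5, with 272 bases between their annotated ends, so that the same stretch lies upstream of both. The window of Hadhb, at chr5:30155003-30155302 on the plus strand, covers most of that stretch and is printed for this reason. It held none of the motifs searched.
Hadhb: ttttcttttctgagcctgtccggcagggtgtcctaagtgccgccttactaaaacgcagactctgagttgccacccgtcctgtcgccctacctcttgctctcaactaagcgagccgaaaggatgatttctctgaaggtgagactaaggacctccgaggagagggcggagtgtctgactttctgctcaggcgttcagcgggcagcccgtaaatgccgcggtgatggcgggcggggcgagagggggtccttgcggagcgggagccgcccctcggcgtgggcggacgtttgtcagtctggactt

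The other enzymes of these steps were not called. Acat1, the mitochondrial acetoacetyl-CoA thiolase, read 8.31, 8.38 and 8.15 with the mimic, 8.28, 8.25 and 8.28 with the inhibitor, and 8.45, 8.59 and 8.41 in the controls. As for Echs1, the controls were the highest 3 of the 9. The differences were -0.21 ± 0.07 with the mimic (SE; limma, adjusted p = 0.154) and -0.21 ± 0.07 with the inhibitor (limma, adjusted p = 0.0621), and the inhibitor difference was called without mimic 2 or without mimic 3 (limma, adjusted p of 0.0441 and 0.0181). Hadh, the short-chain hydroxyacyl-CoA dehydrogenase, differed by -0.03 ± 0.06 with the mimic and -0.09 ± 0.06 with the inhibitor. Acaa2, the mitochondrial thiolase for medium chains, differed by 0.05 ± 0.08 and -0.07 ± 0.08.

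Eci1 and Eci2, isomerases that move double bonds into place, and Decr1, the dienoyl-CoA reductase, let unsaturated fatty acids enter the cycle. Limma called none of the 3 with the mimic, with the inhibitor or between them, beside 3.55%, 14.9% and 26.8% of all genes. Only Eci1 with the mimic had an unadjusted p under 0.05, beside 15.9%, 28.8% and 38.5% of all genes in these comparisons. Eci1 stood at 7.21, 7.15 and 7.21 with the mimic, 7.16, 7.30 and 7.31 with the inhibitor, and 7.32, 7.33 and 7.38 in the controls. Its controls were the highest 3 arrays, with differences of -0.15 ± 0.05 for the mimic (SE; limma, adjusted p = 0.184) and -0.08 ± 0.05 for the inhibitor. Eci2 and Decr1 differed by -0.06 and -0.08 with the mimic and by -0.06 and -0.05 with the inhibitor.

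Of the peroxisomal genes, Acaa1a, a thiolase, was higher with the mimic than with the inhibitor. It stood at 4.31, 4.22 and 4.35 with the mimic, 4.05, 4.13 and 4.10 with the inhibitor, and 4.13, 4.12 and 4.13 in the controls. All mimic arrays lay above all others. Mimic minus inhibitor was 0.20 ± 0.05 (SE; limma, adjusted p = 0.0132), which held in all 9 leave-one-out fits and was 0.15 without both mimic 3 and inhibitor 1 (limma, adjusted p = 0.0539). Mimic minus control was 0.17 ± 0.05 (limma, adjusted p = 0.102). The probe set lay close to the level filter, and the gene has a close copy, Acaa1b, so that the 2 signals may not be fully separate. Acaa1b has a probe set of its own, which differed by 0.01 between mimic and inhibitor (limma, adjusted p = 0.971). Acox3, an acyl-CoA oxidase for branched chains, and Hsd17b4, the D-bifunctional protein, gave differences between -0.05 and 0.01 in both comparisons with the control. Ehhadh, the L-bifunctional protein, read 3.49, 3.53 and 3.60 with the mimic, 3.48, 3.64 and 3.65 with the inhibitor, and 3.61, 3.60 and 3.65 in the controls, below the level filter and untested.

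Acaa1a, at chr9:119341044-119341343 on the plus strand, had more CCAAT boxes than any of the other members with a window, 4 in all, and is shown for that.
Acaa1a: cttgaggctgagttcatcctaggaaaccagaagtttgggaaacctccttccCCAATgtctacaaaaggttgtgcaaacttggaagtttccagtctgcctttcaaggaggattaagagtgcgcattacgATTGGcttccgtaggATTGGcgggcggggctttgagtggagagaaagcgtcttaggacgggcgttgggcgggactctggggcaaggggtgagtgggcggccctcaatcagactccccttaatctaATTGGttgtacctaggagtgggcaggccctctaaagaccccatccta

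**Figure D3:**
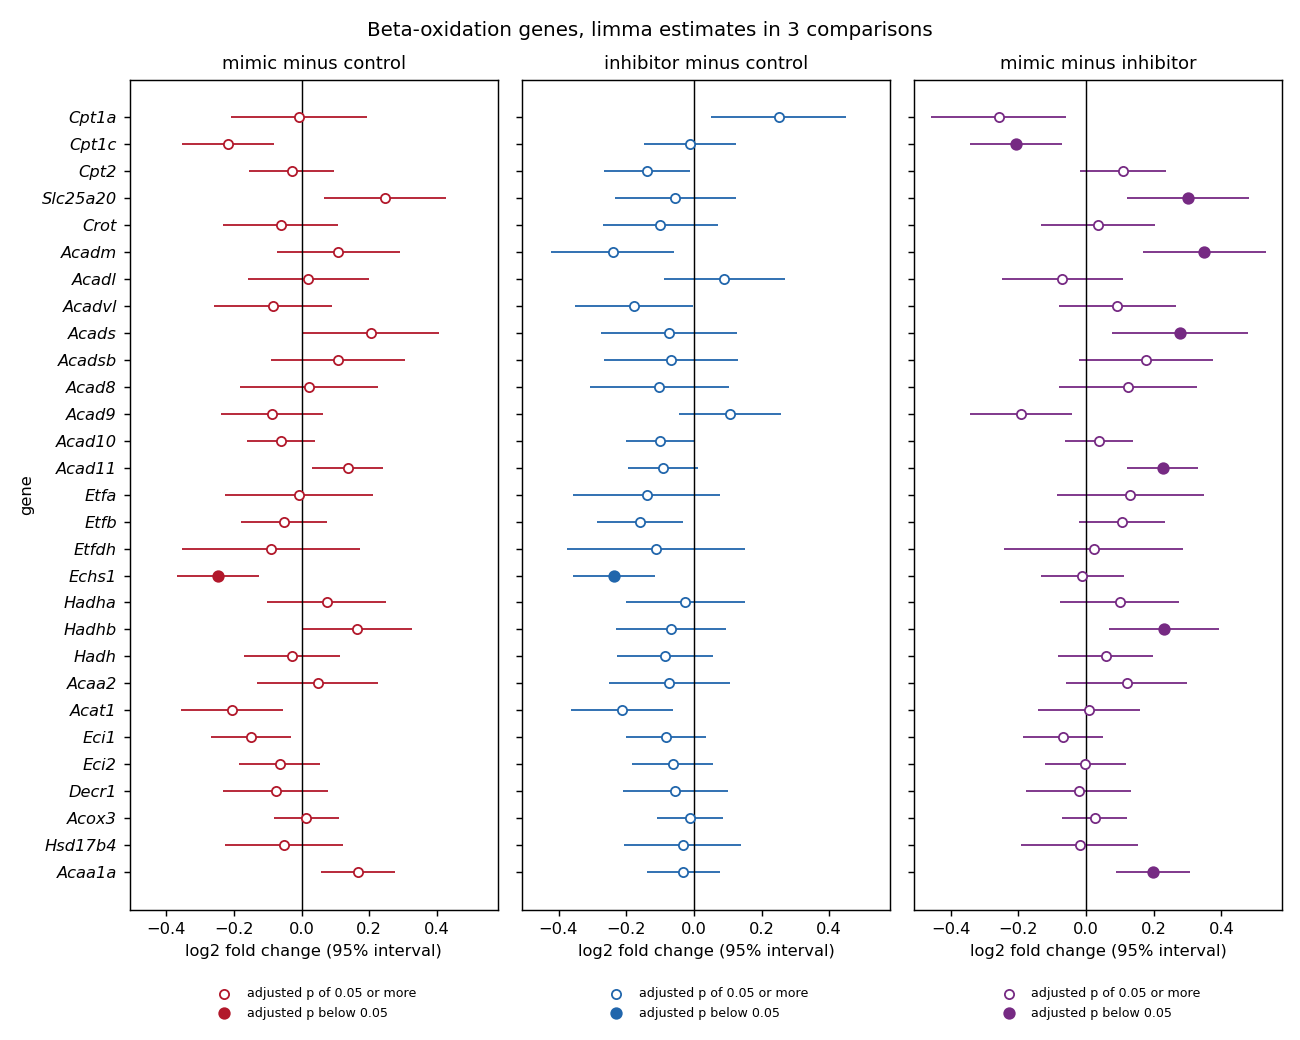
Limma log2 fold changes with 95% intervals for the 29 genes, by role from top to bottom, in mimic minus control, inhibitor minus control and mimic minus inhibitor; filled points have an adjusted p below 0.05. Echs1 is the single filled point in each of the first 2 panels, and 7 points are filled in the third, 6 of them right of 0.

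RefSeq windows were at hand for 25 of the 31 listed genes. Their median GC content was 60.7% and their median number of CpG dinucleotides 17, against 52.7% and 7 over 32851 windows of all genes, a description with no test. The CCAAT box (CCAAT, both strands) was in 12 of the 25, or 48%, against 37.4% of all windows. The palindromic core motif of NRF1, a factor of mitochondrial genes, was in 2, those of Acad10 and Etfdh, or 8%, against 0.971% of all. The extended site of estrogen-related receptors (TNAAGGTCA, both strands) and the direct repeat bound by nuclear receptor dimers (AGGTCA, any base, AGGTCA, both strands) were in none of the 25, against 1.28% and 0.0396% of all windows. A match is a run of letters and not a site shown to be used, and no match says only that these letters are not in this window.

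Mimic 3 stood below its group for much of the list. It was the lowest of the mimic arrays for 21 of the 29 members, and for 57.7% of all genes tested. Its median difference from the control mean was -0.10 over the members, where mimic 1 and mimic 2 had medians of -0.003 and 0.06. Over all genes tested the medians were 0.0002, 0.02 and -0.05 for mimic 1, 2 and 3. The inhibitor arrays had member medians of -0.05, -0.11 and -0.07 while their medians over all genes were 0.02, 0.01 and 0.02. So 18, 26 and 23 of the 29 members lay below the control mean on inhibitor 1, 2 and 3, while more than 54% of all genes lay above it on each. Within the mimic group the members' median SD was 0.13, against 0.07 with the inhibitor and 0.05 in the controls. Over all genes tested it was 0.09, 0.08 and 0.05.

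**Figure D4:**
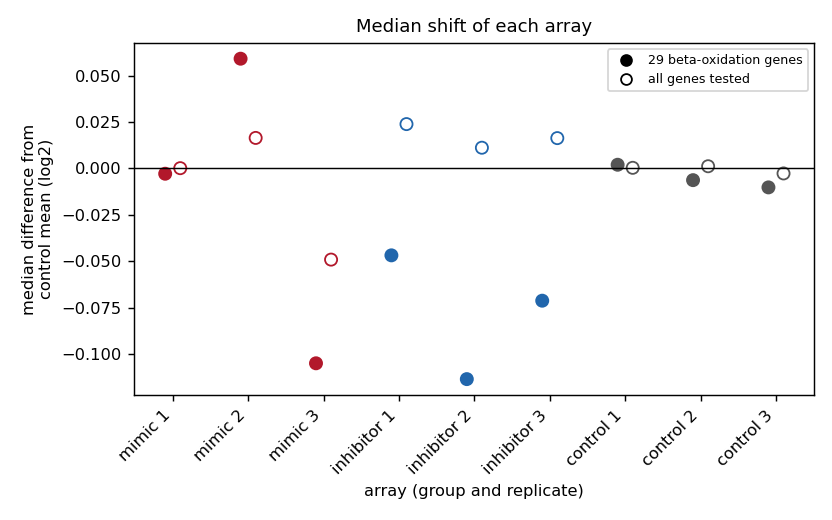
Median difference from the control mean (log2) on each of the 9 arrays, over the 29 beta-oxidation genes (filled) and over all 11963 genes tested (open). The filled points of the 3 inhibitor arrays lie between -0.11 and -0.05 while the open ones lie above 0, and mimic 3 lies at -0.10.

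The scaling of the arrays moved the counts. After quantile normalization of the probe-set values, which makes the distributions of the 9 arrays identical, 14 of the 29 members were higher with the mimic than with the inhibitor and 1 was lower, or 48.3% and 3.45%, beside 14% and 17% of all genes. The median of mimic minus inhibitor was then 0.16 over the members and 0.01 over all genes. With the inhibitor 8 members fell relative to the control, or 27.6%, beside 8.54% of all genes, and none rose (limma, 10.6% of all genes). These were Acadm, Acadvl, Acat1, Cpt2, Crot, Echs1, Etfb and Hadhb, with a largest adjusted p of 0.0375 (limma). With the mimic Slc25a20, Hadhb and Acaa1a rose and Cpt1c and Echs1 fell, 10.3% and 6.9% of the list, beside 2.8% and 3.67% of all genes. Centring the arrays on their medians gave fewer calls, with 3 members higher and 1 lower between mimic and inhibitor, 13.8% in all, beside 4.56% of all genes called higher and 19.4% called lower, and 0 called against the control with either RNA (limma; 7 with the mimic and 5 with the inhibitor at an unadjusted p under 0.05), beside 1.93% and 11.5% of all genes. Without mimic 3 and inhibitor 1, a choice made after seeing the data, 9 members were higher with the mimic than with the inhibitor, or 31%, beside 24.5% of all genes called in either direction. In the same fit 4 rose and 1 fell with the mimic, or 17.2%, beside 7.62% of all genes called in either direction. With the inhibitor 3 fell and 0 rose, or 10.3%, beside 20.9% of all genes called in either direction. That share is no measure of falls alone, since in the fit reported 11.1% of all genes were called higher with the inhibitor and 3.76% lower. Acadm and Acad11 were called higher with the mimic than with the inhibitor under each of these scalings and without these arrays.

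**Figure D5:**
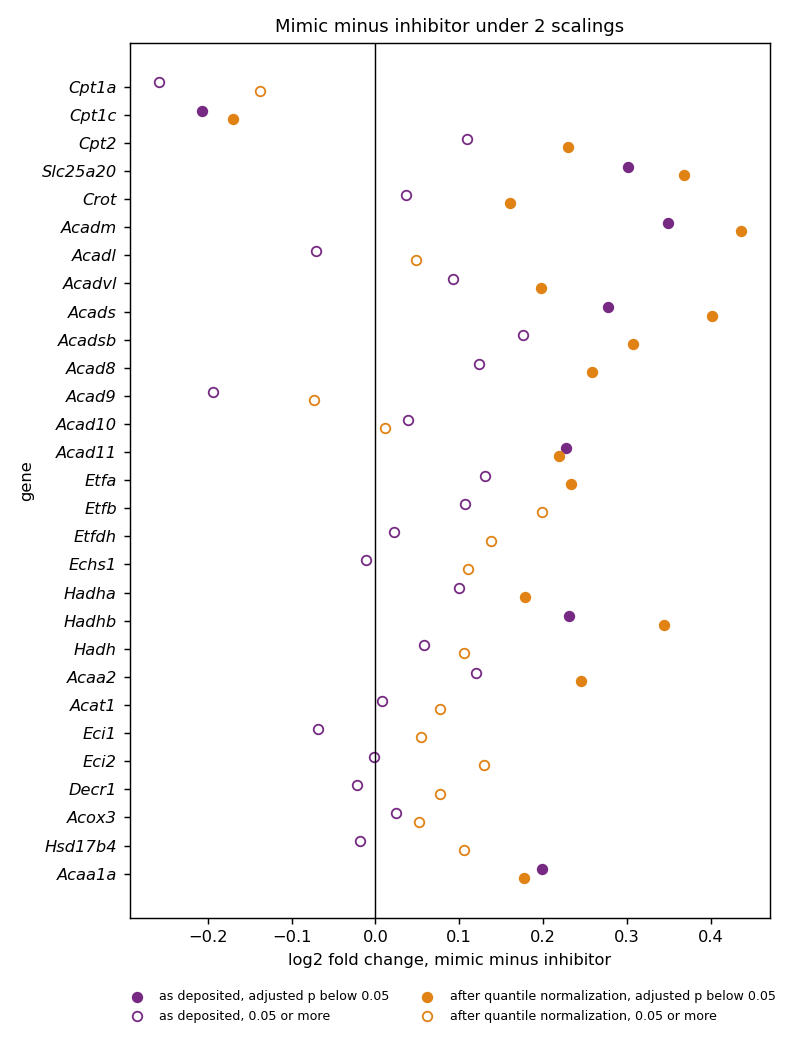
Log2 fold change of mimic minus inhibitor for the 29 genes on the deposited values (purple) and after quantile normalization (orange), with filled points for an adjusted p below 0.05. The count of filled points is 7 on the deposited values and 15 after quantile normalization, and most orange points lie to the right of the purple ones, with Acad10, Acad11 and Acaa1a among those to the left.

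Genes that lie before and around the pathway were read from 6 further lists of 87 symbols, of which 66 were tested. With the mimic 1 rose and 2 fell (4.55%, beside 3.55% of all genes), with the inhibitor 8 rose and 6 fell (21.2%, beside 14.9%), and between mimic and inhibitor 8 were higher and 13 lower with the mimic (31.8%, beside 26.8%). The mimic count was 0 without control 1 or control 3 (limma; at least 8 with an unadjusted p under 0.05) and 1 without control 2, inhibitor 3 or mimic 1, where 1.11% to 2.4% of all genes were called. The inhibitor count was 5 to 9 without any 1 of the control or inhibitor arrays, where 8.14% to 13.8% of all genes were called, and the count between mimic and inhibitor was 12 without inhibitor 3, where 20.5% were. In fatty acid uptake and activation 2 of 9 genes fell with the mimic, 22.2% beside 2.45% of all genes called lower. With the inhibitor 1 rose and 1 fell, 11.1% each, beside 11.1% of all genes called higher and 3.76% called lower. Those that fell with the mimic were Acsl5, an acyl-CoA synthetase, by 0.35 ± 0.08 (SE; limma, adjusted p = 0.0441) and Fabp5, a fatty acid carrier, by 0.28 ± 0.06 (limma, adjusted p = 0.0331). Acsl4, the synthetase that prefers arachidonate, moved most. It stood at 6.65, 6.70 and 6.37 with the mimic, 7.55, 7.30 and 7.49 with the inhibitor, and 6.52, 6.42 and 6.49 in the controls, and rose by 0.97 ± 0.09 with the inhibitor (limma, adjusted p = 0.000186). Dbi, which binds acyl-CoA, fell by 0.28 with the inhibitor (limma, adjusted p = 0.0159).

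Carnitine palmitoyltransferase 1 is inhibited by malonyl-CoA, which acetyl-CoA carboxylase makes and AMP-activated kinase restrains. Of 8 genes of this control tested, 1 rose with the mimic, beside 1.1% of all genes called higher. With the inhibitor 1 rose, beside 11.1% of all genes called higher. Between mimic and inhibitor 1 was higher and 3 lower with the mimic, beside 6.91% and 19.9% of all genes. Prkab2, a beta subunit of the kinase, rose by 0.27 ± 0.05 with the mimic (SE; limma, adjusted p = 0.0167), and Prkaa1, a catalytic subunit, rose by 0.55 ± 0.12 with the inhibitor (limma, adjusted p = 0.0115). Acaca, the carboxylase, was lower with the mimic than with the inhibitor by -0.49 ± 0.09 (limma, adjusted p = 0.00231). Of 4 carnitine supply genes limma called none in any comparison of the fit reported, beside 3.55%, 14.9% and 26.8% of all genes. Among the 4, 1 had an unadjusted p under 0.05, between mimic and inhibitor, as did 38.5% of all genes. Crat stood at 6.32, 6.46 and 6.47 with the mimic, 6.25, 6.19 and 6.31 with the inhibitor, and 6.37, 6.39 and 6.26 in the controls, with mimic minus inhibitor at 0.17 (limma, adjusted p = 0.0662). That difference was called without mimic 1 (0.21, limma, adjusted p = 0.0417). It was also called after scaling to the 75th percentile and after quantile normalization (0.26 and 0.29, limma, adjusted p of 0.0116 and 0.00849), and in no other alternative.

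Of 13 further peroxisomal genes, 3 fell with the inhibitor, 23.1% beside 3.76% of all genes called lower. Limma called none with the mimic, where 3.55% of all genes were called (0 with an unadjusted p under 0.05, beside 15.9% of all genes). Phyh, which starts the oxidation of phytanic acid, stood at 5.27, 5.34 and 5.30 with the mimic, 4.86, 4.88 and 4.82 with the inhibitor, and 5.27, 5.15 and 5.19 in the controls. It fell by 0.35 ± 0.05 with the inhibitor (SE; limma, adjusted p = 0.00141). Ech1, a dienoyl-CoA isomerase, fell by 0.39 ± 0.06 (limma, adjusted p = 0.00212) and Hacl1, the lyase of the same phytanic acid route, by 0.23 ± 0.05 (limma, adjusted p = 0.0177). Of 16 other mitochondrial acyl-CoA genes, 1 rose and 2 fell with the inhibitor, 18.8% in all, beside 14.9% of all genes. Of all genes 11.1% were called higher there and 3.76% lower. The thioesterase gene Acot2 rose by 0.33, and Mcee, of propionate breakdown, and Acot13 fell by 0.32 and 0.21 (limma, adjusted p of at most 0.0455). With the mimic limma called none of the 16, beside 3.55% of all genes (2 with an unadjusted p under 0.05, beside 15.9%). Between mimic and inhibitor 2 were called, both higher with the mimic, beside 26.8% of all genes called and 6.91% called higher.

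Of 16 transcriptional regulators of the pathway tested, limma called none with the mimic, beside 3.55% of all genes (3 with an unadjusted p under 0.05, beside 15.9%). With the inhibitor 5 rose, 31.2% beside 11.1% of all genes called higher. Pprc1, a coactivator related to Ppargc1b, rose by 0.43 ± 0.06 (SE; limma, adjusted p = 0.00118), Gabpb1, a subunit of the factor GABP, by 0.47, Cebpb by 0.43, Nrf1, a factor of mitochondrial genes, by 0.22, and the corepressor gene Nrip1 by 0.15 (limma, adjusted p of at most 0.0436). After scaling to the 75th percentile Nrip1 was at 0.09 and Nrf1 at 0.16 (limma, adjusted p of 0.276 and 0.079). After quantile normalization Cebpb was at 0.33 and Nrf1 at 0.16 (limma, adjusted p of 0.109 and 0.0528). The calls of Pprc1 and Gabpb1 held under both scalings. Med13 stood at 7.36, 7.46 and 6.86 with the mimic, 7.84, 7.56 and 7.60 with the inhibitor, and 7.27, 7.25 and 7.17 in the controls, and inhibitor minus control was 0.44 ± 0.13 (limma, adjusted p = 0.055), while mimic minus inhibitor was -0.44 (limma, adjusted p = 0.0344). The call between mimic and inhibitor held in 4 of the 9 leave-one-out fits and ended without inhibitor 1, inhibitor 3 or any control array (limma, adjusted p of up to 0.132). The difference was -0.26 without mimic 3 (limma, adjusted p = 0.0387) and -0.17 without both mimic 3 and inhibitor 1 (limma, adjusted p = 0.0549). The difference between inhibitor and control was called in 8 of the alternatives, among them those without mimic 2 or mimic 3 (limma, adjusted p of 0.0303 and 0.00171) and with the replicate block (limma, adjusted p = 0.0369). Of the genes named above, Acsl4, Acsl5, Fabp5, Prkaa1, Pprc1, Gabpb1, Nrf1 and Nrip1 were also called lower with the mimic than with the inhibitor. Dbi, Prkab2, Ech1 and Phyh were called higher there (limma, adjusted p of at most 0.0232 for these genes). Of the 16 regulators 6 were called lower there and 0 higher, 37.5% and 0%, beside 19.9% and 6.91% of all genes. Among genes not named above, Slc27a1, a fatty acid transporter, and Scp2, a peroxisomal thiolase and lipid carrier, were higher there by 0.45 and 0.38. Pccb, of propionate breakdown, and Auh, of leucine breakdown, were higher by 0.24 and 0.36. Slc27a4, another transporter, Prkab1, a kinase subunit, and Lpin1, a phosphatidate phosphatase, were lower by -0.19, -0.15 and -0.26 (limma, adjusted p of at most 0.0343 for all of these). After quantile normalization the last 3 were not called, with Slc27a4 at -0.097, Prkab1 at -0.021 and Lpin1 at -0.16 (limma, adjusted p of 0.26, 0.832 and 0.0675), and after scaling to the 75th percentile they were at -0.094, -0.06 and -0.16 (limma, adjusted p of 0.255, 0.42 and 0.0698). Pccb was at 0.37 after quantile normalization, and Auh at 0.55 without both mimic 3 and inhibitor 1 (limma, adjusted p of 0.000385 and 0.000683). But the call of Pccb held in only 5 of the 9 leave-one-out fits and that of Auh in 2 (limma, adjusted p of up to 0.0887 and 0.103). Both calls also ended after median centring (limma, adjusted p of 0.0789 and 0.0806). Ppargc1b, which hosts miR-378, differed from the control by 0.03 with the mimic and 0.05 with the inhibitor and was not called. Ppara, Ppard and Esrra, nuclear receptors that act on beta-oxidation genes, were tested and not called in either comparison with the control, and Ppargc1a lay below the level filter. Of the 17 calls against the control in these lists, 4 held in every alternative and leave-one-out fit, those of Acsl4, Ech1, Phyh and Pprc1 with the inhibitor, and the other 13 were each lost without at least 1 array (limma, adjusted p of up to 0.156). Of the 21 calls between mimic and inhibitor, 11 held in every alternative, among them Acsl4, Phyh, Ech1, Dbi, Acaca and Prkab2, and 9 were lost without at least 1 array (limma, adjusted p of up to 0.132).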

How the data were processed

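The 9 NIH-3T3 samples were hybridised to Affymetrix arrays. Per the submitters' processing notes, Partek 6.5 and RMA made the deposited log2 values, 1 for each of 28853 probe sets and each array. The genome build was not given in the sources used here. No sample column was left unused (0). Probe sets were named from the platform annotation, and 21789 carried 1 gene and 1621 several. Genes with a mean under the 40th percentile were left out. Group means over all 9 arrays were modelled with limma 3.58.1 (R 4.3.3, 6 residual and 4.38 prior degrees of freedom, median moderated residual SD 0.08). P-values were adjusted over 11963 genes. The number of arrays limits the precision. Every adjusted p is from this test, and standard errors are the moderated ones. The members, the further lists and the rules for naming genes were chosen with earlier results of these data known. All members are named. Values on every array are given by rule for members called or among the 3 largest t statistics of a comparison, and for other members, Crat, Med13 and called genes of the further lists by a later choice. Genes of the further lists are named where called, and Crat, Ppara, Ppard, Esrra, Ppargc1a and Ppargc1b by a later choice. On simulated data the mimic comparison over 11963 genes found 32.8% of the genes given a log2 change of 0.25 and 80.6% of those given 0.5, and the inhibitor comparison 28.4% and 85.1%. The simulation drew noise for each gene on its own, with a spread pooled over the groups, and changed 200 genes. Noise shared by the genes of an array was not simulated, so these shares may not hold for the arrays here. Figures used matplotlib 3.10.9 in Python 3.11.15.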

Additional observations from a re-analysis of the deposited data

How the results depend on the processing

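Counts of members called moved with the scaling, and so did the shares of all genes called. The cause was not tested. The count for mimic against control, 1 in the fit reported, was 5 after quantile normalization, 2 after scaling to the 75th percentile, 5 without mimic 3 and inhibitor 1, and 0 after median centring, with only the 6 arrays compared, with the replicate block and with an intensity trend (limma; 7, 7, 8 and 7 with an unadjusted p under 0.05). In these 7 fits 6.47%, 5.6%, 7.62%, 1.93%, 2.07%, 2.42% and 3.15% of all genes were called. For inhibitor against control, also 1, it was 8, 6, 3, 0 and 4 after quantile normalization, 75th percentile scaling, without mimic 3 and inhibitor 1, after median centring and with 6 arrays, and stayed at 1 with the block, beside 19.2%, 18.8%, 20.9%, 11.5%, 21.5% and 13.2% of all genes. For mimic against inhibitor, 7 in the fit reported, it was 15 after quantile normalization, 13 after 75th percentile scaling, 4 after median centring, 4 with 6 arrays and 5 with the block, beside 30.9%, 33.9%, 24%, 19.3% and 25.3% of all genes. Leaving out single arrays gave 0 to 2, 0 to 4 and 3 to 8 members called, beside 1.11% to 4.87%, 8.14% to 23.3% and 19.3% to 30.7% of all genes, where a count of 0 went with at least 4 members at an unadjusted p under 0.05. The median of the members was -0.16 after quantile normalization and -0.13 after 75th percentile scaling with the inhibitor, 0.16, 0.15 and 0.14 after both scalings and without mimic 3 and inhibitor 1 between mimic and inhibitor, and 0.035 without these arrays with the mimic. With single arrays left out it ran from -0.052 to 0.035, from -0.10 to -0.06 and from 0.022 to 0.12. The further lists had 1 call with the mimic under an intensity trend and with 6 arrays, 7 without mimic 3 and inhibitor 1, and 0 to 4, 5 to 19 and 12 to 22 calls in the 3 comparisons with single arrays left out. No called member changed sign in any alternative. Correlations of same-numbered deviations ran from -0.589 to 0.224. With 3 arrays in each group they cannot show whether the replicate numbers pair the arrays. The block ended the calls of Echs1 with the mimic and of Cpt1c and Hadhb between mimic and inhibitor.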
